A study of Mus musculus with 10 samples.

Results

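The 10 genes described here encode proteins that sit on, shrink, enlarge or help to build lipid droplets: the perilipins Plin2, Plin4 and Plin5, the CIDE proteins Cidea, Cideb and Cidec, the lipase gene Pnpla2 with its inhibitor G0s2, and the fat storage-inducing transmembrane genes Fitm1 and Fitm2. They were taken by gene symbol from the 54532 genes in the deposited table, and 10 of the 10 were found there and passed the filter on low values, which left 13306 genes in all. Transcripts were sequenced in bulk from 10 livers, each of a separate mouse, of which 5 carry the label ASK1f/f and 5 the label ASK1+hep. All 10 mice were of C57BL/6J background, were put on high fat diet (HFD) at 6 weeks of age, stayed on it for 7 weeks and were fasted for 5 h before tissue was taken. ASK1 (Map3k5) is a stress-activated kinase of the MAP kinase cascade. ASK1f/f mice were homozygous for a mouse ASK1 cDNA in the ROSA26 locus that a floxed stop cassette keeps silent, and ASK1+hep mice carried this construct plus Cre under the albumin promoter, which removes the stop in hepatocytes. The control mice therefore carried the construct without Cre, and no Cre-only group was part of the comparison. Livers from chow-fed mice and measurements of liver fat were not analysed here, so the comparison is between the genotypes on HFD.

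Hepatocytes store surplus fatty acids as triglyceride in lipid droplets, which bud from the endoplasmic reticulum and are covered by a phospholipid monolayer with proteins on it. Perilipins coat the droplet and limit the access of lipases, CIDE proteins let droplets fuse or exchange lipid, adipose triglyceride lipase (ATGL, encoded by Pnpla2) starts their breakdown, and FIT proteins act where droplets leave the endoplasmic reticulum. Several of these genes are low in lean liver and high in fatty liver, and are regarded as targets of the nuclear receptors PPARα and PPARγ.

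The libraries held between 13367742 and 16163378 reads on genes, recovered from the FPKM values as described under processing. Map3k5 was checked against the labels, and in 4 of the 5 ASK1f/f livers it lay between 4.71 and 6.88 FPKM, whereas 19.8 FPKM was found for the library labelled ASK1f/f replicate 5, above the 7.68 to 16.4 FPKM of the ASK1+hep livers. ASK1+hep replicate 3 stood apart in another way: genes of at most 1200 bases lay a median of 0.42 (log2) above their median over the livers in it, against −0.13 to 0.14 in the other livers, and short genes among the 10 are G0s2 (871 bases), Fitm1 (971 bases) and Cidea (1164 bases). ASK1+hep replicate 5 was shifted the opposite way, with short genes at −0.13, and gene length and GC content accounted for 25% of the squared deviation there, 16.8% in ASK1+hep replicate 3 and 1.39% to 9.04% in the others. For the members, values without the library labelled ASK1f/f replicate 5 and ASK1+hep replicate 3 are given, and for several of them also those after a correction for gene length and GC content in each liver. All 10 hepatocyte markers examined were present in every liver. Of 10 adipocyte markers, Adipoq, Plin1, Lep, Retn and Ucp1 were below 0.1 FPKM in all 10 livers. The summed level of the list lay at 15.7 to 162 FPKM in ASK1f/f livers and 14.1 to 184 FPKM in ASK1+hep livers, and in the livers with the highest sums most of it came from Cfd (adipsin). In bulk liver, fewer cells of a type and less RNA per cell cannot be told apart.

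The 10 genes are spread over 8 chromosomes of the GRCm38 build. Plin4 (chr17:56100591-56109803) and Plin5 (chr17:56111601-56117596) are neighbours on the minus strand. Plin2 lies at chr4:86648386-86670060 and Cidec at chr6:113424634-113435760, both on the minus strand, and Pnpla2 at chr7:141455198-141460743 on the plus strand. G0s2 (chr1:193272161-193273217) and Fitm2 (chr2:163466379-163472629) are on the minus strand with 2 exons each. Fitm1 (chr14:55575617-55576954, plus strand) and Cideb (chr14:55754050-55758458, minus strand) share a chromosome. The deposited boundaries of Cidea differed from those of the annotation used here, so its position is left out. Genes on the opposite strand overlap Plin4 (Hdgfl2), Cidea (B430212C06Rik), Cideb (Nop9), G0s2 (Lamb3), Fitm1 (Gm15932) and Fitm2 (2310001K24Rik). The library protocol names directional and non-directional kits, and if strand was not used in counting, reads of these genes and their partners cannot be told apart.

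The 250 bases before the transcription start are shown for 4 of the genes, namely Plin2 as the most abundant and Cidec, Pnpla2 and G0s2 as the members with the lowest p-values between the genotypes. They are RefSeq sequences of GRCm38.p6, written 5′ to 3′ on the gene's own strand. Capitals mark matches on either strand to the nuclear receptor core motif AGGTCA, the GC box GGGCGG, the TATA box TATAAA or the CCAAT box CCAAT, so a match on the other strand appears as its reverse complement.
Plin2 (chr4:86670060-86670309, minus strand): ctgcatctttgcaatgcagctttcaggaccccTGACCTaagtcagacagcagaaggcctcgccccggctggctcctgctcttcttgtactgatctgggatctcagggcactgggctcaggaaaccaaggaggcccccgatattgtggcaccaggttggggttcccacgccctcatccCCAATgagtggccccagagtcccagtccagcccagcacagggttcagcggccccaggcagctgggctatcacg
Cidec (chr6:113435761-113436010, minus strand): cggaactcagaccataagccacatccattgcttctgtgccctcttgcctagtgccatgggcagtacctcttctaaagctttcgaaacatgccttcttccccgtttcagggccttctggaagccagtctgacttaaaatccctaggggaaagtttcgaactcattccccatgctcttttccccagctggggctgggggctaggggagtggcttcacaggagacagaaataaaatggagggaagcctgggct
Pnpla2 (chr7:141454938-141455187, plus strand): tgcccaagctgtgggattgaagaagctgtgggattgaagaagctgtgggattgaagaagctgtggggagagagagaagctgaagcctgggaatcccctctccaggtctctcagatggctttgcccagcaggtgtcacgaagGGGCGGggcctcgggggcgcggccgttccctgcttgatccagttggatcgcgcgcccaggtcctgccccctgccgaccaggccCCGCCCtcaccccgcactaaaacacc
G0s2 (chr1:193273189-193273438, minus strand): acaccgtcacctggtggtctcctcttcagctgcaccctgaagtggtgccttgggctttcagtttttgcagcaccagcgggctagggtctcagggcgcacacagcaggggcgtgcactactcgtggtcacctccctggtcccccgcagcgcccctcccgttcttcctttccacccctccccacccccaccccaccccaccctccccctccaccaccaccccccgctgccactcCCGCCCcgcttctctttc
The Plin2 window holds AGGTCA on the other strand 218 to 213 bases before the start, and CCAAT at 73 to 69 bases. The Pnpla2 window holds GGGCGG at 109 to 104 bases and its complement at 26 to 21 bases, G0s2 holds its complement at 18 to 13 bases, and none of the 4 motifs matched in the Cidec window. Cidea was left out of the sequence search. Of the 9 members searched, AGGTCA was found for 2 (Plin2 and Plin5), against 14% of all 32851 promoter windows. The corresponding figures were 5 of 9 and 32.7% for GGGCGG, 1 of 9 (Cideb) and 12.4% for TATAAA, and 3 of 9 (Plin2, Plin4 and Plin5) and 33.8% for CCAAT. These are letter matches only.

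FPKM values are scaled to gene length, so levels can be set side by side between genes. Plin2 and G0s2 were the most abundant, with medians over the 10 livers of 178 and 129.6 FPKM, ahead of Fitm1 (53.9 FPKM) and Pnpla2 (45.4 FPKM). Plin5 (35.6 FPKM), Cideb (35.3 FPKM), Fitm2 (22.9 FPKM) and Cidec (22.7 FPKM) followed, and Plin4 (6.33 FPKM) and Cidea (1.55 FPKM) were lowest. The ranges over livers of each gene and the next in this order overlapped. Within a liver the order was firmer for some: G0s2 was above Fitm1 and Cideb above Fitm2 in 10 of 10 livers, and Cidec above Plin4 in 9. The order was not settled for Plin5 and Cideb, with Plin5 higher in 4 of 10 livers, or for Fitm2 and Cidec, with Fitm2 higher in 5, and the other neighbours kept their order in 7 or 8 livers. Plin2 made up 22.7% to 42.2% of the summed FPKM of the 10 genes in a liver, and G0s2 15.6% to 42.4%.

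The genes differed widely in their spread between livers. On the log2(FPKM + 1) scale the SD over the 10 livers was 1.80 for Cidea, 1.54 for Cidec, 0.88 for Fitm1, 0.83 for G0s2 and 0.71 for Plin4. Among the genes within 0.5 of the mean log2 level of each, the gene itself included, 0.0335%, 0.173%, 1.67%, 3.05% and 2.16%, respectively, had an SD at least as large, so that for Cidea no other of 2989 genes did. Cideb (SD 0.18), Fitm2 (0.19), Plin5 (0.26), Pnpla2 (0.31) and Plin2 (0.42) were in the ordinary range, with 75.2%, 68.6%, 48.7%, 40.6% and 27.6% of like genes at least as variable. After the correction for gene length and GC content the SD was 1.70 for Cidea, 1.45 for Cidec, 0.66 for Fitm1 and 0.73 for G0s2. The highest Cidea and Cidec values of each genotype were in the library labelled ASK1f/f replicate 5 and ASK1+hep replicate 3. The SDs of these genes therefore rest in part on 2 livers, and SDs without them were not computed.

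**Figure D1:**
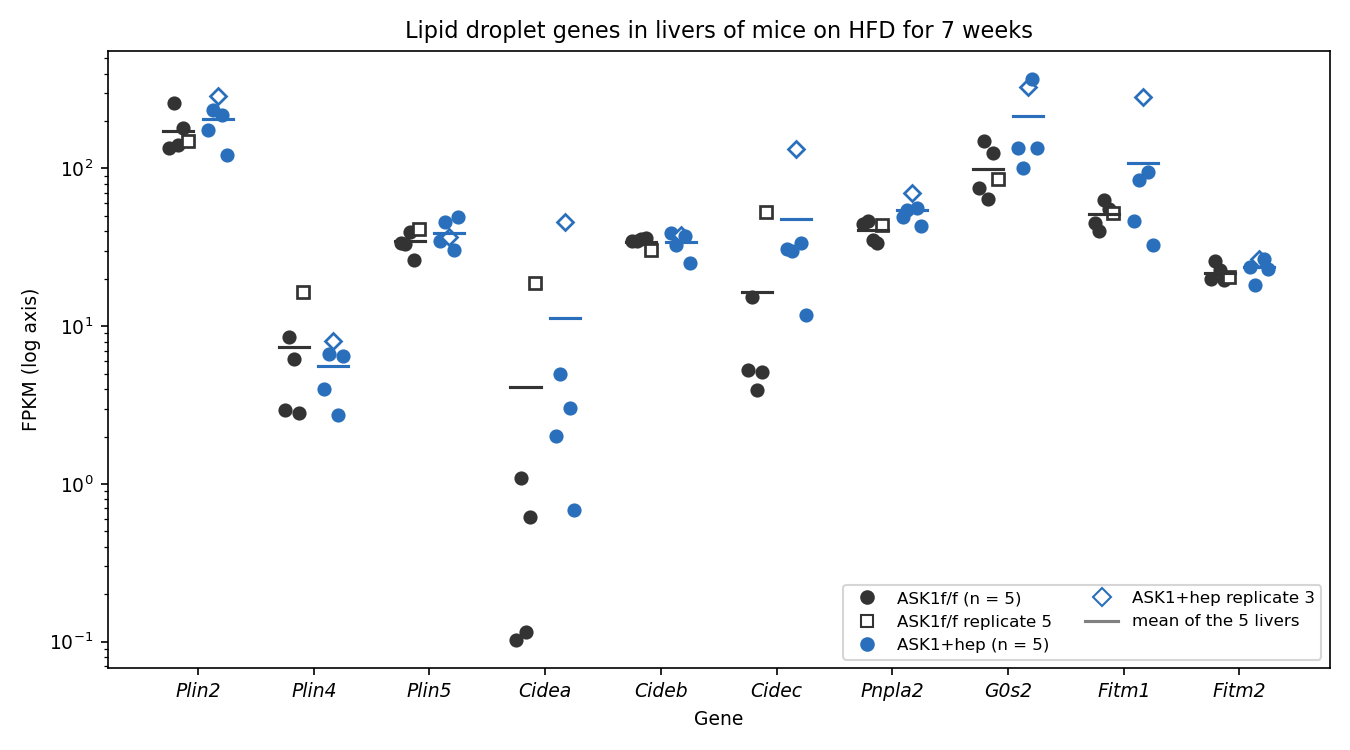
FPKM (log axis) of each of the 10 lipid droplet genes in the 5 ASK1f/f livers (black) and the 5 ASK1+hep livers (blue), with the mean of each group as a bar. Open symbols mark the library labelled ASK1f/f replicate 5 and ASK1+hep replicate 3, which hold the highest Cidea and Cidec values of their groups, 18.8 and 46.0 FPKM for Cidea and 52.9 and 133 FPKM for Cidec. The genotypes overlap for every gene.

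Of the coat proteins, Plin2, the main perilipin of hepatocyte droplets, was present at 136, 259, 142, 180.0 and 149 FPKM in ASK1f/f replicates 1 to 5, in this order, and at 175, 235, 286, 218 and 122 FPKM in ASK1+hep replicates 1 to 5. The ASK1+hep group held both the highest and the lowest liver, and the groups overlapped over most of their range. The difference was 0.24 on the log2 scale (ASK1+hep minus ASK1f/f, SE 0.24, 95% confidence interval −0.28 to 0.77, exact permutation p = 0.397). It lay between 0.11 (without ASK1+hep replicate 3) and 0.42 with each liver left out, and was 0.072 without the library labelled ASK1f/f replicate 5 and ASK1+hep replicate 3. Plin5, which tethers droplets to mitochondria and holds back lipolysis, ranged from 26.3 to 41.3 FPKM in ASK1f/f livers and from 30.3 to 49.0 FPKM in ASK1+hep livers, a difference of 0.16 (SE 0.16, exact permutation p = 0.349). The Plin5 difference was 0.25 without the same 2 livers and 0.078 after the correction for gene length and GC content. Plin4, a perilipin best known from adipocytes and muscle, was at 2.93, 8.60, 6.18, 2.83 and 16.6 FPKM in ASK1f/f livers and at 3.98, 6.67, 8.02, 2.74 and 6.48 FPKM in ASK1+hep livers. The library labelled ASK1f/f replicate 5 was the highest of all 10 livers, and the others overlapped between the genotypes. The Plin4 difference of −0.18 (SE 0.40, exact permutation p = 0.738) turned to 0.14 without that library, and to 0.011 without that library and ASK1+hep replicate 3.

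The CIDE genes split into a steady member and a variable pair. Cideb, the CIDE protein of hepatocytes that also takes part in VLDL lipidation, was at 30.5 to 36.3 FPKM in ASK1f/f livers and 25.3 to 39.1 FPKM in ASK1+hep livers. Its means of 34.4 ± 2.29 and 34.4 ± 5.61 FPKM (SD, n = 5 each) were level, with a log2 difference of −0.016 (95% confidence interval −0.29 to 0.26, exact permutation p = 0.913). The Cideb difference was −0.094 without the library labelled ASK1f/f replicate 5 and ASK1+hep replicate 3 (exact permutation p = 0.686). It was −0.086 after the correction for gene length and GC content (exact permutation p = 0.389).

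Cidec, which promotes growth of droplets by lipid transfer and is scarce in lean liver, was at 5.29, 15.4, 3.96, 5.13 and 52.9 FPKM in ASK1f/f replicates 1 to 5, in this order, and at 31.0, 30.0, 133, 33.8 and 11.8 FPKM in ASK1+hep replicates 1 to 5. All 5 ASK1+hep livers were above the ASK1f/f median of 5.29 FPKM, but the library labelled ASK1f/f replicate 5 exceeded 4 of them and ASK1+hep replicate 5 lay below ASK1f/f replicate 2. The mean was 2.89 times as high in ASK1+hep, 47.9 ± 48.2 against 16.6 ± 20.9 FPKM, and the log2 difference was 1.69 (SE 0.70, 95% confidence interval 0.16 to 3.22). The unadjusted limma p was 0.0334, the exact permutation p was 0.0714, and limma with Benjamini-Hochberg adjustment over all genes gave 0.812. The unadjusted p ranged from 0.00249 to 0.0836 with each liver left out. Without the library labelled ASK1f/f replicate 5 and ASK1+hep replicate 3 the difference was 1.78 (unadjusted limma p = 0.00137, adjusted p = 0.295, exact permutation p = 0.0571). After the correction for gene length and GC content it was 1.61 (exact permutation p = 0.0714).

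Cidea, typical of brown fat and of fatty rather than lean liver, spanned the widest range of the 10 genes. Its levels were 0.103, 1.09, 0.115, 0.621 and 18.8 FPKM in ASK1f/f livers and 2.02, 4.98, 46.0, 3.03 and 0.686 FPKM in ASK1+hep livers, and the lowest values rested on 2 reads in each of ASK1f/f replicates 1 and 3. All 5 ASK1+hep livers were above the ASK1f/f median of 0.621 FPKM, and the library labelled ASK1f/f replicate 5 was above 4 of the 5. The log2 difference of 1.22 (SE 0.94, 95% confidence interval −0.83 to 3.28, exact permutation p = 0.333) lay between 0.46 and 1.98 with each liver left out in turn. Without the library labelled ASK1f/f replicate 5 and ASK1+hep replicate 3 it was 1.22, with an unadjusted limma p of 0.00617, an adjusted p of 0.511 and an exact permutation p of 0.0571.

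Cfd, a gene of adipocytes that liver can also express, was highest in the livers in which Cidea and Cidec were highest, at 4.81, 57.9, 5.37, 19.2 and 147 FPKM in ASK1f/f livers and 25.9, 19.6, 160, 79.7 and 3.78 FPKM in ASK1+hep livers. The defining adipocyte genes Adipoq and Plin1 had highest values in any liver of 0.0526 and 0.0468 FPKM. Of the other markers on the list, Lipe (13.2 FPKM) and Aqp7 (0.77 FPKM) were highest in ASK1+hep replicate 3. Adrb3 was at 2.93 to 5.83 FPKM in ASK1f/f livers and 5.63 to 15.3 FPKM in ASK1+hep livers and was the only adipocyte marker with an unadjusted p under 0.05. Its log2 difference of 0.86 (SE 0.24) had an unadjusted p of 0.00336 in the limma fit and an adjusted p of 0.763. Fabp4 was at 1.29 to 3.76 FPKM. The part of these genes in the members' values was not tested. Adipoq and Plin1 were at 0 in the library labelled ASK1f/f replicate 5, and in ASK1+hep replicate 3 Adipoq was at 0 and Plin1 at 0.0468 FPKM.

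Pnpla2 was the member with the lowest p-value in the comparison of the genotypes. The gene encodes ATGL, the lipase that removes the first fatty acid from stored triglyceride, and its levels were 44.5, 46.3, 35.2, 33.6 and 43.9 FPKM in ASK1f/f livers and 49.4, 54.8, 70.2, 56.3 and 43.0 FPKM in ASK1+hep livers. ASK1+hep livers 1 to 4 were above all 5 ASK1f/f livers, and ASK1+hep replicate 5 lay within their range. The mean was 1.34 times as high, 54.7 ± 10.1 against 40.7 ± 5.84 FPKM (SD, n = 5), with a log2 difference of 0.41 (SE 0.15, 95% confidence interval 0.094 to 0.73). The unadjusted limma p was 0.0156, the exact permutation p was 0.0317, the adjusted p was 0.812, and Pnpla2 ranked 245 among the 13306 genes by p. With each liver left out in turn the difference stayed between 0.32 and 0.49 and the limma p between 0.00502 and 0.0453, but the exact p was above 0.05 without ASK1f/f replicate 3, ASK1f/f replicate 4 or ASK1+hep replicate 2, 3 or 4. The correction for gene length and GC content gave 0.38 (unadjusted limma p = 0.004, adjusted p = 0.614) and an exact permutation p of 0.00794, the smallest that reassigning 10 livers to 2 groups of 5 can give. The Pnpla2 difference was 0.35 without the library labelled ASK1f/f replicate 5 and ASK1+hep replicate 3 (unadjusted limma p = 0.030, adjusted p = 0.794, exact permutation p = 0.0857).

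G0s2, which encodes a small protein that binds ATGL and blocks it, was at 75.4, 149.5, 64.2, 125 and 85.8 FPKM in ASK1f/f livers and at 134, 99.99, 329.7, 370.3 and 135 FPKM in ASK1+hep livers. ASK1+hep replicates 3 and 4 were above all ASK1f/f livers, and the other 3 lay within the ASK1f/f range. The mean was 2.14 times as high, 214 ± 126 against 99.95 ± 35.9 FPKM, with a log2 difference of 0.96 (SE 0.38, 95% confidence interval 0.14 to 1.78). The unadjusted limma p was 0.0257 (0.00867 to 0.0681 with each liver left out), the exact permutation p was 0.0635 and the adjusted p was 0.812. G0s2 is the shortest member, and the difference was 0.83 (exact permutation p = 0.0556) after the correction for gene length and GC content and 0.72 (exact permutation p = 0.229) without the library labelled ASK1f/f replicate 5 and ASK1+hep replicate 3.

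The ratio of inhibitor to lipase, G0s2 over Pnpla2 in FPKM, was 1.69, 3.23, 1.82, 3.72 and 1.96 in ASK1f/f and 2.72, 1.83, 4.70, 6.58 and 3.13 in ASK1+hep livers. G0s2 transcripts outnumbered those of Pnpla2 in every liver, and the genotypes overlapped. G0s2 is the shorter gene (871 against 3020 bases), and these ratios were not corrected for the shifts with gene length between livers.

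Fitm1 encodes FIT1, which is known mainly from skeletal and heart muscle, and Fitm2 encodes the widespread FIT2. Fitm1 was the more abundant of the pair in every liver, at 1.41 to 10.7 times the Fitm2 level, while 7 of 8 skeletal muscle markers were below 0.1 FPKM in all livers. Fitm1 is the shorter gene (971 against 3967 bases), and these ratios were not corrected for gene length and GC content. The extremes lay in ASK1+hep replicates 5 (1.41) and 3 (10.7), where length and GC content accounted for the largest shares of the deviation (25% and 16.8%). Fitm1 was at 44.9, 40.3, 62.9, 55.7 and 52.1 FPKM in ASK1f/f livers and at 46.4, 85.1, 285, 94.5 and 32.7 FPKM in ASK1+hep livers. ASK1+hep replicate 3 alone lay far above the rest, the lowest liver was also ASK1+hep, and the log2 difference of 0.67 (SE 0.45, exact permutation p = 0.270) was 0.22 without replicate 3 and 1.00 without ASK1+hep replicate 5, where its unadjusted limma p was 0.0335 and its adjusted p 0.383. It was 0.52 after the correction for gene length and GC content, and 0.23 without the library labelled ASK1f/f replicate 5 and ASK1+hep replicate 3. Fitm2 ranged from 19.7 to 25.9 FPKM in ASK1f/f livers and from 18.3 to 26.6 FPKM in ASK1+hep livers, a difference of 0.11 (95% confidence interval −0.16 to 0.38, exact permutation p = 0.389). The Fitm2 difference was 0.050 without the same 2 livers and 0.14 after the correction.

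**Figure D2:**
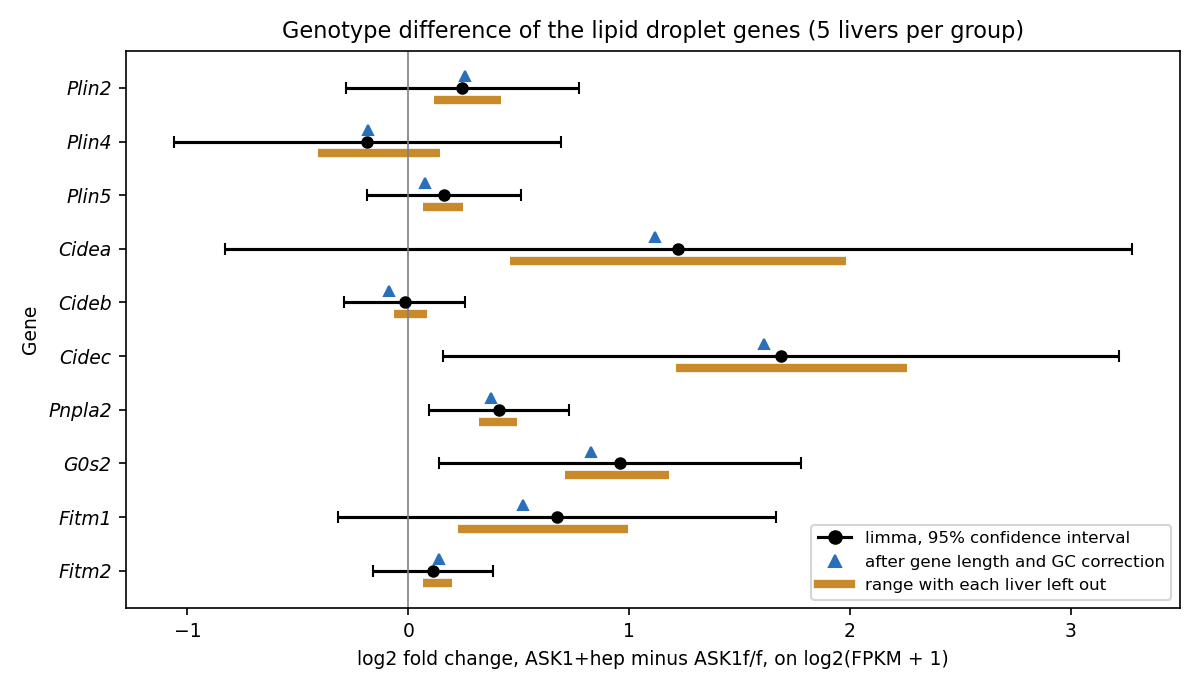
Log2 fold change (ASK1+hep minus ASK1f/f, on log2(FPKM + 1)) of each gene, as a point with its 95% confidence interval from limma, as a triangle after correction for gene length and GC content, and as an orange bar for the range with each liver left out in turn. The intervals of Cidec (1.69), G0s2 (0.96) and Pnpla2 (0.41) lie above 0 before adjustment for multiple testing, those of the other genes include 0, and the leave-one-out ranges of Plin4 and Cideb cross 0.

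Over all members, 0 of 10 had an adjusted p at or below 0.05 (limma with Benjamini-Hochberg adjustment over 13306 genes), as was so for 0% of the genes tested, the lowest adjusted p of any gene being 0.355. At an unadjusted limma p under 0.05 there were 3 members (Pnpla2, G0s2 and Cidec), against 5.77% of all genes. All 3 were higher in ASK1+hep, a direction that 3.05% of all genes took at this threshold, and 2.72% of all genes were lower. Without the library labelled ASK1f/f replicate 5 and ASK1+hep replicate 3 there were also 3, with Cidea in place of G0s2. The count fell to 1 without ASK1f/f replicate 1, ASK1f/f replicate 3, ASK1+hep replicate 3 or ASK1+hep replicate 4. The groups did not overlap for 0 members and for 0.864% of all genes. Of the members, 8 had a higher mean log2 level in ASK1+hep, where 48% of all genes did, and the median log2 difference was 0.33 over the members and −0.0065 over all genes. Since the members were chosen with earlier results of these data known, these counts are descriptions.

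From liver to liver, Cidec varied together with Cidea and with Pnpla2, the 2 of 45 pairs of members whose Pearson's r passed Benjamini-Hochberg adjustment. Over the 45 pairs r was positive for 38, with a median of 0.41, while over all pairs of the 13306 genes 49.9% were positive with a median of −0.0005. Without the library labelled ASK1f/f replicate 5 and ASK1+hep replicate 3 36 pairs were positive with a median of 0.192, and after the correction for gene length and GC content 28 were, with a median of 0.333. Cidea and Cidec had the closest relation, with r = 0.93 and Spearman's rho = 0.927 over 10 livers. Its permutation p of 1e-05 is the smallest that 100000 resamples can give, and after Benjamini-Hochberg adjustment over the 45 pairs the values were 0.00045 for r and 0.0157 for rho. The relation was r = 0.913 when the 2 livers farthest from the median of Cidea, the library labelled ASK1f/f replicate 5 and ASK1+hep replicate 3, were left out (permutation p = 0.00236, adjusted p = 0.106). It was 0.950 with the genotype means removed (adjusted p = 0.0112) and 0.922 after the correction for gene length and GC content (adjusted p = 0.00135). The ratio of Cidea to Cidec in FPKM overlapped between the genotypes, at 0.0194 to 0.355 in ASK1f/f and 0.0581 to 0.346 in ASK1+hep livers, and was highest in the library labelled ASK1f/f replicate 5 and ASK1+hep replicate 3.

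The relation of Cidec and Pnpla2 had r = 0.852 (permutation p = 0.00188, adjusted p = 0.0423) and rho = 0.770 (adjusted p = 0.236). This relation was r = 0.664 (permutation p = 0.0659) without the 2 livers farthest from the median of Cidec, and so rests in part on them. Without the library labelled ASK1f/f replicate 5 and ASK1+hep replicate 3 it was 0.896 (adjusted p = 0.0556). With the genotype means removed it was 0.767 (adjusted p = 0.132), and after the correction for gene length and GC content 0.831 (adjusted p = 0.0643). At an unadjusted permutation p under 0.05 there were 12 pairs of the 45, against 6 after that correction, 4 without the library labelled ASK1f/f replicate 5 and ASK1+hep replicate 3 and 3 without the 2 livers farthest from the median. The share of all gene pairs past this threshold was not computed, so these counts cannot be read as particular to the members. The pair farthest below 0 was Plin5 and Cideb (r = −0.72, adjusted p = 0.123). Plin2 and Cidec had r = 0.590 (adjusted p = 0.209).

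**Figure D3:**
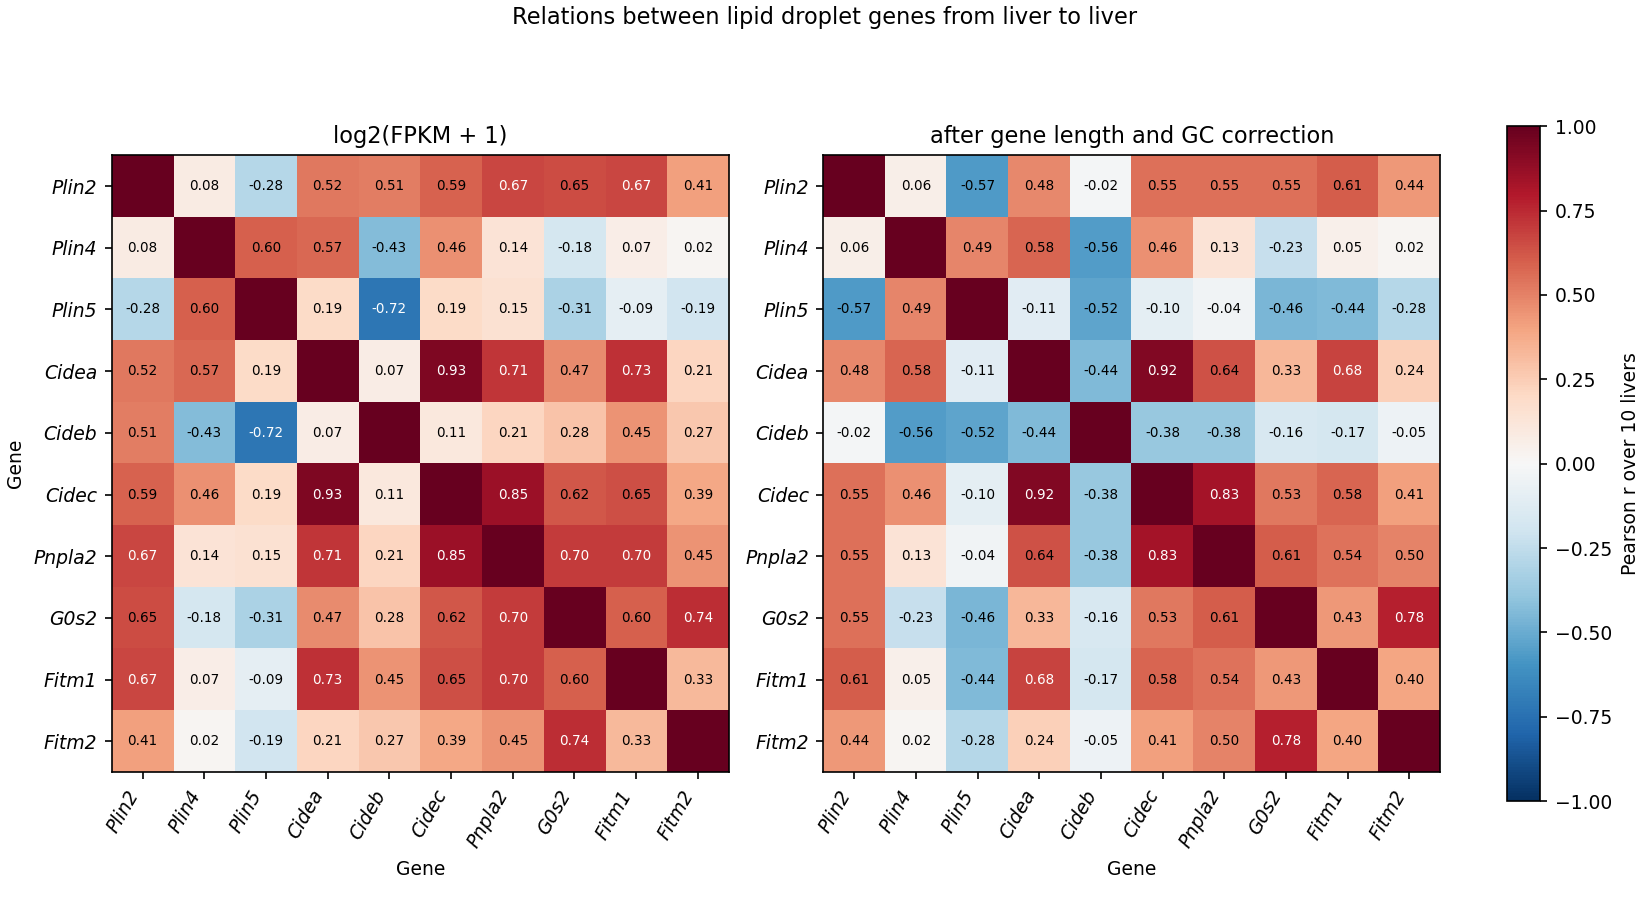
Pearson's r between each pair of the 10 genes over 10 livers, on log2(FPKM + 1) (left) and after correction for gene length and GC content (right), from −1 (blue) to 1 (red). The darkest red cells off the diagonal are Cidea with Cidec (0.93) and Cidec with Pnpla2 (0.852), and Plin5 and Cideb lie at −0.72 with each other before and −0.52 after the correction.

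The members were also set against the level of Map3k5 over the 10 livers. Over 10 relations the highest r was 0.542, with Cidec (permutation p = 0.107, adjusted p = 0.579, rho = 0.697 with adjusted p = 0.309), and 0 of 10 passed adjustment. The library labelled ASK1f/f replicate 5 and ASK1+hep replicate 3 were the livers with the highest Cidec, at 19.8 and 7.68 FPKM of Map3k5, the highest and, among ASK1+hep livers, the lowest value. Without these 2 livers r with Cidec was 0.781 (permutation p = 0.0355, adjusted p = 0.301). Map3k5 is the gene that ASK1+hep mice overexpress, so r over all 10 livers includes the difference between the genotypes. With the genotype means removed r with Cidec was 0.359 (permutation p = 0.306). It was 0.334 (permutation p = 0.42) without the 2 livers farthest from the median of Map3k5. After the correction for gene length and GC content it was 0.641 (permutation p = 0.0487, adjusted p = 0.453).

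**Figure D4:**
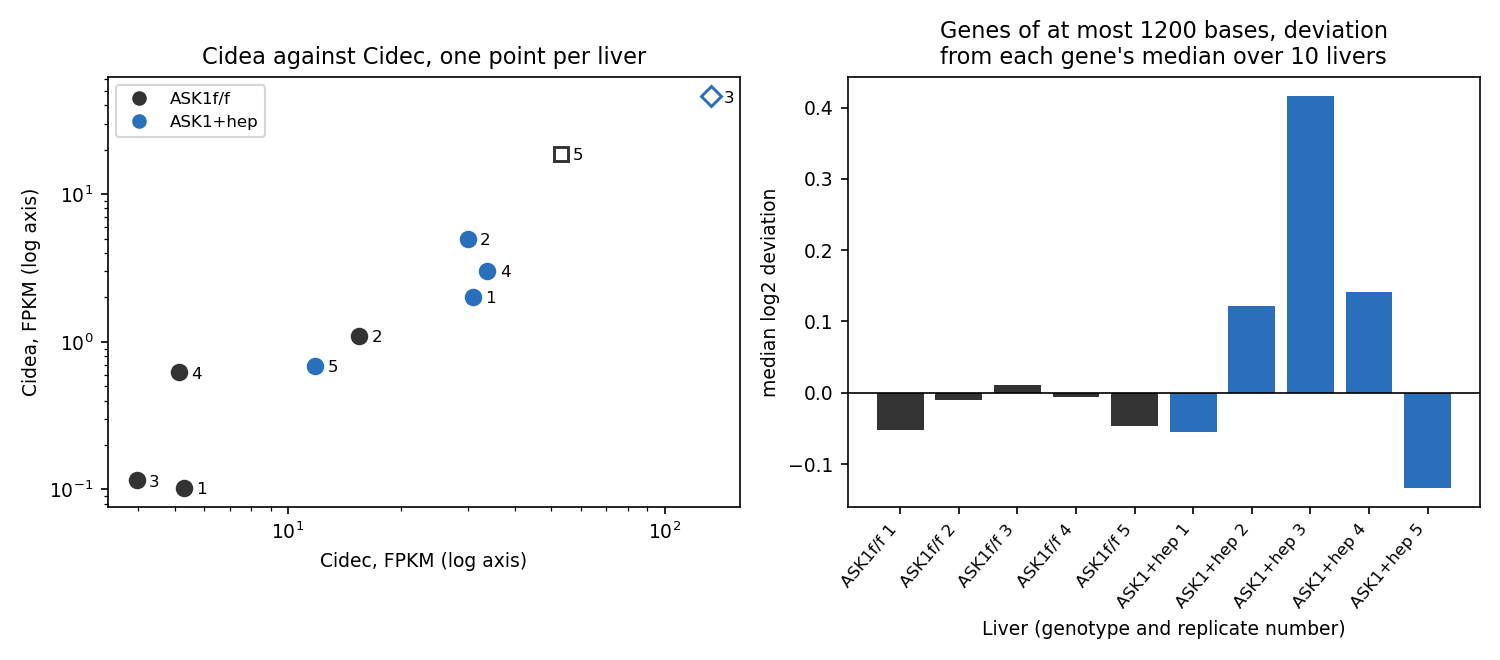
Left, FPKM of Cidea against Cidec on log axes, a point for each liver with its replicate number. Right, the median log2 deviation of genes of at most 1200 bases from each gene's median over the 10 livers, for each liver. Cidea and Cidec rise together across both genotypes up to ASK1+hep replicate 3, the liver whose short genes lie 0.42 above their median.

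The genes whose pattern over the 10 livers was most like that of Cidec, among 10041 genes with a mean of at least 1 FPKM, were Tubb2a (a β-tubulin, r = 0.964), Gal3st1 (a sulfotransferase of sulfatide synthesis, r = 0.940) and Sqstm1 (the autophagy receptor p62, r = 0.929). These values were 0.958, 0.935 and 0.938 after the correction for gene length and GC content. Tubb2a ranged from 7.10 to 56.4 FPKM and Sqstm1 from 91.6 to 179 FPKM. The genes most like Plin2 were Fbxo6 (r = 0.957), Slc25a26 (the mitochondrial S-adenosylmethionine carrier, r = 0.940) and Txndc17 (r = 0.936), with 0.707, 0.935 and 0.702 after the correction. Being the highest of 10041 values, these are descriptions.

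The other genes of droplet and triglyceride metabolism were followed in 5 lists, and none of their genes passed adjustment in limma (0 of 13, 17, 13, 14 and 16 genes past the filter). In each list 1 gene had an unadjusted limma p under 0.05. Of all 13306 genes 5.77% had such a p, 3.05% higher and 2.72% lower in ASK1+hep, and 48% were higher at any p. In lists of this size 1 gene is near that share, so the single genes below are descriptions. Of 13 other genes of the droplet coat and surface, 5 were higher and 8 lower in ASK1+hep, with a median log2 difference of −0.091, and 1 was lower at an unadjusted p under 0.05. That gene was Cav1, the caveolar coat protein, at 1.70 ± 0.717 FPKM in ASK1f/f livers and 1.00 ± 0.232 FPKM in ASK1+hep livers (−0.40, p = 0.0344, exact permutation p = 0.0556). Plin3, the perilipin of nascent droplets, was at 11.8 ± 1.66 and 9.67 ± 1.45 FPKM (−0.26, exact permutation p = 0.0873). The most abundant genes of the list were Mettl7b, at 477 ± 35.8 and 686 ± 333 FPKM, and Hsd17b13, at 159.6 ± 6.78 and 174 ± 27.2 FPKM, with exact permutation p-values of 0.222 and 0.389. The log2 difference of Mettl7b was 0.40, and 0.19 without the library labelled ASK1f/f replicate 5 and ASK1+hep replicate 3.

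Among 17 genes of triglyceride synthesis and droplet birth, 11 were higher and 6 lower, with a median of 0.035, and 1 was higher at an unadjusted p under 0.05. This was Mogat1, a monoacylglycerol acyltransferase that is low in lean liver, at 0.912 ± 0.281 FPKM in ASK1f/f livers and 2.48 ± 2.06 FPKM in ASK1+hep livers (0.73, SE 0.27, limma p = 0.0193, adjusted p = 0.812, exact permutation p = 0.0159). The groups overlapped by a little, 0.538 to 1.29 against 1.26 to 6.15 FPKM. Without the library labelled ASK1f/f replicate 5 and ASK1+hep replicate 3 the Mogat1 difference was 0.50. The final enzyme of triglyceride synthesis in liver, Dgat2, was at 222 ± 32.6 and 195 ± 13.6 FPKM (exact permutation p = 0.135), Agpat2 at 95.3 ± 16.2 and 118 ± 48.3 FPKM (0.452), the seipin gene Bscl2 at 8.49 ± 0.572 and 11.4 ± 4.22 FPKM (0.198) and Pcyt1a at 10.2 ± 0.839 and 8.51 ± 2.53 FPKM (0.183). Without the same livers the log2 differences of Agpat2, Bscl2 and Pcyt1a went from 0.23, 0.32 and −0.28 to 0.011, 0.15 and −0.17.

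Of 13 other lipolysis genes, 6 were higher and 7 lower, with a median of −0.0047, and 1 was lower at an unadjusted p under 0.05. This was Ces1g, a carboxylesterase, at 59.0 ± 16.3 FPKM in ASK1f/f livers and 35.8 ± 6.47 FPKM in ASK1+hep livers (−0.68, SE 0.20, limma p = 0.00491, adjusted p = 0.804, exact permutation p = 0.0238). Ces1 genes are near-identical neighbours whose reads can be shared, so its value is uncertain. Ces3a went the other way, at 878 ± 140 and 1090 ± 146 FPKM (exact permutation p = 0.0476), and Aadac was at 301 ± 31.8 and 313 ± 47.8 FPKM (0.667). Pnpla8 was at 8.50 ± 0.455 and 7.50 ± 2.48 FPKM (0.389).

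Among 14 regulators of these genes, 7 were higher and 7 lower, with a median of −0.022. Pparg, the receptor regarded as the activator of Cidec and Cidea in fatty liver, was at 2.98 ± 0.630 FPKM in ASK1f/f livers and 4.70 ± 1.58 FPKM in ASK1+hep livers (0.50, SE 0.17, limma p = 0.0151, adjusted p = 0.812, exact permutation p = 0.0238). Its ranges of 2.31 to 3.83 and 3.57 to 7.42 FPKM overlapped, and without the library labelled ASK1f/f replicate 5 and ASK1+hep replicate 3 the difference was 0.42. Ppara, the gene of PPARα, was more abundant and went the other way, at 24.6 ± 1.99 and 21.1 ± 9.66 FPKM (−0.32, exact permutation p = 0.294). Its difference was −0.10 without the same livers. The part of either receptor in the members' levels was not tested. The exact permutation p was 0.103 for Usf1 (7.32 ± 0.575 and 9.99 ± 3.38 FPKM) and 0.111 for Mlxipl, the gene of ChREBP (62.2 ± 4.48 and 53.3 ± 11.1 FPKM). Without those livers the log2 difference was 0.17 in place of 0.35 for Usf1 and −0.14 in place of −0.24 for Mlxipl. Cebpa and Cebpb were the most abundant regulators, at 193 ± 28.6 and 216 ± 68.5 FPKM and at 223 ± 61.7 and 289 ± 129.6 FPKM.

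Of 16 genes of lipid uptake and export, 9 were higher and 7 lower, with a median of 0.046. Apoa4, an apolipoprotein of triglyceride-rich particles, was at 294 ± 151 FPKM in ASK1f/f livers and 634 ± 368 FPKM in ASK1+hep livers (1.07, SE 0.47, limma p = 0.0420, adjusted p = 0.812, exact permutation p = 0.0794). Fabp1, the fatty acid binding protein of hepatocytes and at 553 bases a short gene, was at 7228 ± 1194 and 10650 ± 3617 FPKM (exact permutation p = 0.0556), and its log2 difference of 0.52 was 0.23 without the library labelled ASK1f/f replicate 5 and ASK1+hep replicate 3. Vldlr, the VLDL receptor, was at 0.0586 ± 0.0380 and 0.146 ± 0.0916 FPKM (exact permutation p = 0.0873).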

How the data were processed

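Per the study's methods, RNA from each liver was purified on poly-T beads, sequenced on Illumina platforms, cleaned of adapters and low-quality reads (fastp in the submitters' processing notes), mapped with Hisat2 and counted per gene with FeatureCounts. The authors deposited the result as FPKM values (reads scaled to gene length and to a library size), and tested genotypes with DESeq2. The library size implied by these values was 0.890 (ASK1+hep replicate 3) to 1.06 (ASK1f/f replicate 1) times the reads on genes. The tools' versions and the build are not given in the sources used here. Of the genes, 98.3% had identical coordinates in GENCODE M21, so GRCm38 was used.

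FPKM are not counts, so limma 3.58.1 (R 4.3.3) with a mean-variance trend was run on log2(FPKM + 1) with Benjamini-Hochberg adjustment over all genes tested. Fold changes on this scale understate the change of low genes. FPKM times gene length gave whole reads (within 0.01) for 100% of values, and a gene was kept where 5 or more livers had 10 or more reads after scaling to the median depth, and 15 or more in total. Libraries held 13367742 to 16163378 reads. Members had 110 or more reads in every liver except Cidea, which had as few as 2. The lowest Cidea values therefore carry a large relative counting error. Single genes were tested by two-sided exact permutation over all assignments of the livers (smallest possible p 0.00794), and correlations with 100000 resamples. Gene length and GC content were corrected in each liver with natural splines of 5 degrees of freedom, an alternative chosen after seeing the data, as were the fits without 2 livers. In a test on simulated data with 200 of 13306 genes changed by a log2 of 2, 98.5% were recovered, and 5.74% of the 209 calls were false. Reads were drawn for each gene on its own, without the shifts with gene length and GC content seen in these livers. Recovery in the real data may therefore be lower. On log2(FPKM + 1) the largest member difference over all livers was 1.69 (Cidec), and limma-voom on recovered reads gave 2.38 for Cidea. Recovery of changes smaller than 2 was not tested. Map3k5, which ASK1+hep mice overexpress, differed by a log2 of 0.60 (exact permutation p = 0.159) and did not pass adjustment. Without the library labelled ASK1f/f replicate 5 and ASK1+hep replicate 3 its difference was 1.07 (exact permutation p = 0.0286), again short of the adjusted threshold.

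No 2 libraries agreed within sampling noise (lowest chi-square per degree of freedom 19.2). Replicate numbers were not taken as pairs. The named genes are all members, Map3k5, and of each list the 3 with the lowest p and the 2 with the highest mean, plus the 3 most like Plin2 and Cidec, and marker genes given beside a member. Ppara was added because PPARα is named beside PPARγ. Markers of muscle, stellate cells, macrophages, endothelium, cholangiocytes, lymphocytes and exocrine pancreas were also read, and of these 1 pancreas gene (Cela2a) had an unadjusted p under 0.05, as had 1 adipocyte marker (Adrb3) and 1 hepatocyte marker (Ttr). Members and lists were chosen with earlier results of these data known. Promoter sequences are RefSeq's (GRCm38.p6).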

Additional observations from a re-analysis of the deposited data

Results flagged for a closer look

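In 12 of the 76 groups of 5 livers examined (38 genes in each genotype), the highest or lowest liver lay farther from the nearest of the others than Dixon's 95% limit (0.71 of the group's range) allows. The limit is set for about 1 group in 20 by chance, and 6.17% of the groups over all 13306 genes were past it, with ASK1+hep replicate 3 (3.2% of genes) and the library labelled ASK1f/f replicate 5 (2.3%) the most frequent. The 38 genes were chosen in part by low p or by likeness to Cidec, so the share among them is a description. The livers concerned are ASK1+hep replicate 3 and the library labelled ASK1f/f replicate 5. In ASK1+hep replicate 3, Cidea was at 45.96 FPKM against 4.984 in the next liver, Cidec at 132.6 against 33.82, Fitm1 at 285.4 against 94.5, Mogat1 at 6.149 against 1.782, Pparg at 7.423 against 4.646, Tubb2a at 56.4 against 22.08 and Gal3st1 at 9.281 against 3.259. In the library labelled ASK1f/f replicate 5, Cidea was at 18.81 FPKM against 1.091 in the next liver, Cidec at 52.93 against 15.43, Tubb2a at 38.18 against 14.08 and Map3k5 at 19.78 against 6.876, while Cideb was the lowest at 30.48 against 34.78. Tubb2a and Gal3st1 were among the genes picked for their likeness to Cidec, so their values add nothing independent. In ASK1+hep replicate 3 short genes as a whole lay above their median over the livers (0.42 on the log2 scale), and in the library labelled ASK1f/f replicate 5 they did not (−0.046).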

How the results depend on the processing

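None of the 10 members passed the adjusted threshold in any of 19 alternatives, and Plin2, Plin5, Cidea, Cidec, Pnpla2, G0s2, Fitm1 and Fitm2 kept their direction in all of them. Plin4 (−0.18) turned to 0.142 when the library labelled ASK1f/f replicate 5 was left out and to 0.0011 for ASK1+hep replicate 4, in a range of −0.408 to 0.142 over the livers, and to 0.011 without both doubted livers (the library labelled ASK1f/f replicate 5 and ASK1+hep replicate 3), and Cideb (−0.016) to 0.0023 when ASK1f/f replicate 4 was left out and to 0.086 for ASK1+hep replicate 5, in a range of −0.066 to 0.086. Over all genes, adjusted calls were 0, but 3 without both doubted livers and 0 to 1 with each liver left out (1 without ASK1+hep replicate 5). Calls at an unadjusted p under 0.05 were 768, against 1222 without the filter, where more genes were tested, and 557 to 1724 with each liver left out (1178 without ASK1+hep replicate 1, 1724 without replicate 5). Members at that threshold numbered 1 to 4 and members with an exact p at or below 0.05 (1, Pnpla2) 0 to 3 with each liver left out, and the latter was 0 without both doubted livers, where the smallest possible p is larger. Scaled by all reads, which moved the median of all genes from −0.0065 to −0.052, the list medians were −0.158 for droplet coat and −0.038 for triglyceride synthesis. The latter was −0.0046 to 0.120 with each liver left out. Scaling by all reads also lowered the difference of every member. It was then 0.17 for Plin2, 0.085 for Plin5, 0.037 for Fitm2 and 0.33 for Pnpla2. Adjusted relations between members were 2, against 1 when scaled by all reads, 1 with genotype means removed, 1 after the length and GC correction, 0 without the 2 farthest livers, 0 without both doubted livers and 1 to 3 with each liver left out. The cause of these changes was not tested. Same-numbered livers correlated at 0.0738, 0.174, 0.0212, 0.171 and 0.0932, a mean of 0.107 against −0.0275 for differently numbered livers, and 6 of 10 livers correlated best with their own number. Group means were removed first, so the value for differently numbered livers follows nearly from that for same-numbered ones. It is no separate comparison. The labels state no pairing and 3 of the 5 correlations are under 0.1, so the numbers were not taken as pairs. Most same-numbered livers do carry animal tags with consecutive numbers, and the paper used littermate controls. A pairing by litter is therefore possible and was not settled. With the replicate block 880 genes and 2 members had an unadjusted p under 0.05 and 0 passed adjustment. No exact test was made with the block, whose smallest p is 0.0625. With 5 mice a group, differences of the size of Plin2's and Plin5's cannot be told from 0.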
